A study of Homo sapiens with 4 samples.

Results

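The clustered replication-dependent histone genes were followed in the MTF-1 binding data of MDA-MB-231 cells, an established human breast cancer cell line. They were taken as the protein-coding genes of GENCODE 44 on hg38 whose names have the form H1-1 to H1-6, H2AC, H2BC, H3C or H4C with a number, which gave 69 of the 20033 protein-coding genes on the main chromosomes. MTF-1, a zinc finger transcription factor that senses metals, was mapped by CUT&RUN with an anti-MTF1 antibody in 2 libraries from control cells with no treatment and 2 libraries from cells of the same line kept for a prolonged time in cadmium at 10 µM, a population selected by repeated passaging in cadmium sulfate. The libraries of each condition were merged by the authors before peak calling, so 1 peak list per condition was available, with positions and no read counts. The depth of the libraries and the spread between replicates are therefore unknown here, no test between the conditions was possible, and every count below describes these 2 lists.

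Replication-dependent histone genes encode the core histones H2A, H2B, H3 and H4, around which DNA is wrapped, and the linker histone H1. They are transcribed mainly in S phase, when new chromatin is assembled, from gene clusters that gather in a nuclear structure called the histone locus body with the coactivator NPAT. Their messenger RNAs have no introns in most cases and end in a conserved stem-loop, bound by SLBP, in place of a poly(A) tail. Expression was not measured in these data, so the peaks say nothing about how strongly any of these genes was transcribed.

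The stem-loop was used to check the label of the gene set, and it was found within 150 bases after a stop codon of all 69 genes, 22 to 67 bases downstream. There were 10 distinct forms of 16 bases on hg38. The 3 most frequent are shown because they carry the feature that defines the set, a loop between the arms of a stem. The loop is TTTC in the first and second forms and TTTA in the third. All bases are in capitals because each run is the stem-loop alone. The first belonged to 40 genes, the second to 10 genes and the third to 9 genes.
Form of 40 genes: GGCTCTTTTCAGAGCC
Form of 10 genes: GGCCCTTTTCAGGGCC
Form of 9 genes: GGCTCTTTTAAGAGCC

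The genes fell into 6 groups when neighbours under 500 kb apart were joined. The largest, on chromosome 6 from 25723397 to 26285638, held 34 genes from H2AC1 to H4C8. On the same chromosome a group of 5 genes ran from H2BC11 to H2AC12 (27125897 to 27147562) and a group of 16 genes from H2BC13 to H2BC17 (27807479 to 27893891). On chromosome 1, 11 genes lay between 149782689 and 149887965 and the pair H2AC25 and H2BC26 between 228434777 and 228463104. H4C16 lay alone on chromosome 12 from 14767999 to 14771131. By class there were 6 H1, 17 H2A, 18 H2B, 13 H3 and 15 H4 genes. Most were short, with 51 of the 69 at most 1000 bp long. GENCODE transcripts that run past the usual end made a few long, such as H2BC4 at 37610 bp. Others begin well upstream of the stem-loop, such as H2BC6 at 12597 bp and H3C12 at 2792 bp. Peaks near the far end of such a long gene may lie far from its start, so positions relative to the gene start are given as well.

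A peak within 1 kb was found at 42 of the 69 genes in the control list and at 42 in the cadmium list, and they were the same 42 genes. Across all 20033 protein-coding genes the percentages were 80.6% in the control list and 79.7% in the cadmium list. The remaining 27 histone genes, 39.1%, had no peak within 1 kb in either list, against 17.4% of all protein-coding genes. No histone gene had a peak in only one of the lists, while 2.94% of protein-coding genes had one in the control list only and 1.99% in the cadmium list only. With shares this small among all genes, few of 69 genes would fall in those classes, so the absence of such genes is not a result about histone genes. The share with a peak in both lists was 60.9% for histone genes and 77.7% for all protein-coding genes, and this difference in share was not tested.

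Since the typical protein-coding gene is longer than a histone gene and thus has more room for a peak, the same counts were taken around the gene start alone. Within 1 kb of the start, 39 histone genes had a control peak and 40 a cadmium peak, where 66.8% and 65.0% of all protein-coding genes had one. The extra gene in the cadmium list was H4C5, whose start lay 1191 bp from a control peak of 999 bp and 391 bp from a cadmium peak of 1199 bp. Among all protein-coding genes, 1.41% had a peak within 1 kb of the start in the cadmium list only and 3.24% in the control list only. No peak of either list lay within 1 kb of the start at 29 histone genes, or 42.0%, and at 31.8% of all protein-coding genes. The start itself lay inside a control peak at 37 histone genes and inside a cadmium peak at 38, the extra gene being H2AC19. Among all protein-coding genes the start lay inside a control peak for 63.0% and inside a cadmium peak for 60.6%.

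**Figure D1:**
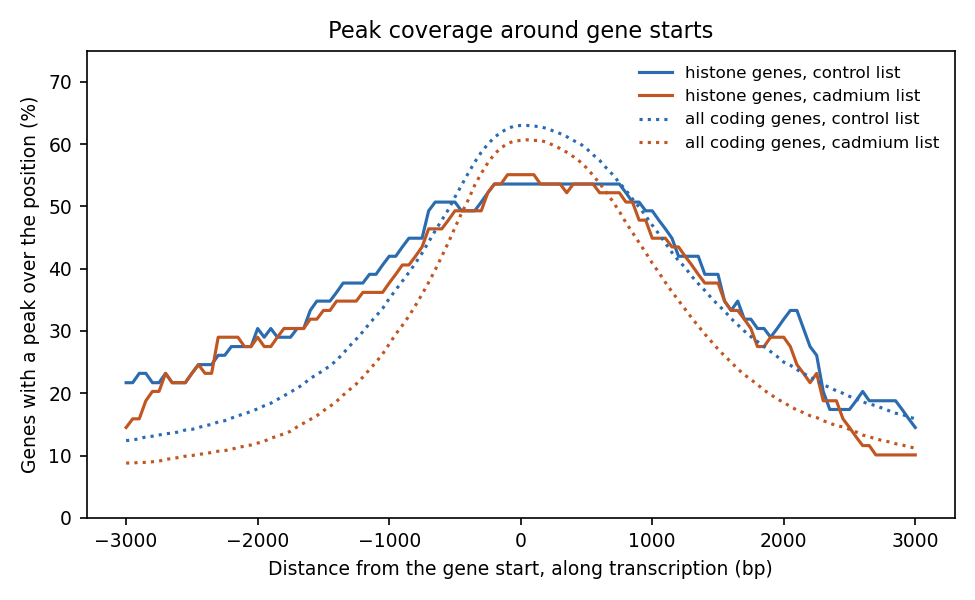
Percentage of genes with a peak over each position, by distance from the gene start along the direction of transcription in bp, for the 69 histone genes (solid lines) and all protein-coding genes (dotted lines) in the control (blue) and cadmium (orange) lists. At the start, 53.6% of histone genes were covered in the control list and 55.1% in the cadmium list, below the dotted lines at 63.0% and 60.6%, while 1000 bp upstream the solid lines lay above the dotted ones.

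The peaks at histone genes extended over the start to both sides and often over the whole short gene. At 1000 bp upstream of the start, 42.0% of histone genes were covered in the control list and 37.7% in the cadmium list, against 35.2% and 27.9% of all protein-coding genes. At 1000 bp downstream the figures were 49.3% and 44.9%, against 47.0% and 40.9%. A single peak held the whole gene at 27 histone genes in the control list and 26 in the cadmium list. Of the 28 genes of at most 1000 bp that had a peak in both lists, 24 lay wholly inside 1 peak in both. Peaks over a histone start had median widths of 3199 bp (control) and 3299 bp (cadmium), longer than such genes. The share over other coding genes of like length was not counted, so these counts are not a trait of histone genes.

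By class, the share of genes with a peak within 1 kb of the gene was close to the 77.7% of all protein-coding genes for H2A and H2B. It was lower for the others. A peak within 1 kb in both lists was present at 13 of 17 H2A genes (76.5%) and 13 of 18 H2B genes (72.2%), whose products form the dimers at the outside of the nucleosome core. It was present at 8 of 15 H4 genes (53.3%) and 6 of 13 H3 genes (46.2%), whose products form the inner tetramer. The H3 and H4 genes without a peak include H3C14, H3C15, H4C14 and H4C15. These lie in copied sequence on chromosome 1, described below, where absence of a peak is uncertain. Of the 6 genes of the linker histone H1, only H1-2 and H1-4 had a peak. Within 1 kb of the gene start, 63.6% of all protein-coding genes had a peak in both lists. There the shares were above this for H2A (70.6%) and H2B (66.7%), and below it for H3 (46.2%), H4 (46.7%) and H1 (33.3%). H2A and H2B genes often share a divergent promoter, so their counts are not independent of each other, and no test between classes was made.

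**Figure D2:**
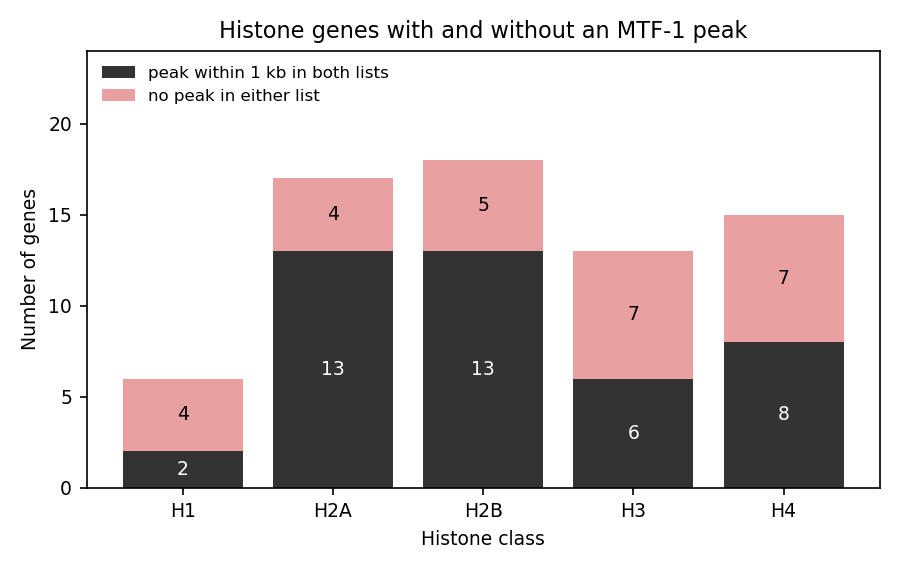
Number of histone genes of each class (H1, H2A, H2B, H3 and H4) with a peak within 1 kb in both lists (dark) or in neither list (pink). Genes with a peak outnumbered those without in H2A (13 and 4), H2B (13 and 5) and H4 (8 and 7), and not in H1 (2 and 4) or H3 (6 and 7). Those without a peak include H3C14, H3C15, H4C14 and H4C15, which lie in copied sequence where absence is uncertain.

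Most genes without a peak on chromosome 6 had a neighbour without one. In the large cluster on chromosome 6, 14 of 15 consecutive genes from H3C1 to H2BC6, over 164.0 kb, had a peak in both lists. The exception among them was H1-6, which encodes a linker histone of the testis. Over the next 84.7 kb, from H4C4 to H2BC10, 14 of 15 consecutive genes had none. The exception there was H4C5. The limits of both stretches were chosen after the values were seen.

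In the stretch without peaks, the genes H4C4, H3C4, H2AC7 and H2BC7 lay in 20.8 kb free of peaks in both lists, from 26184200 to 26205000. After the peak at H4C5, the genes H2BC8, H2AC8, H3C6, H1-3, H4C6, H4C7, H3C7 and H2BC9 lay in 61.6 kb free of peaks, from 26206800 to 26268400. A control peak of 999 bp and a cadmium peak of 199 bp then lay more than 1 kb from H3C8 and H2BC10, the last of the 10 consecutive genes without a peak within 1 kb. The start of H1-3, the gene deepest in this stretch, was 28188 bp from the closest control peak and 28788 bp from the closest cadmium peak.

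An interval of that length without a peak is not rare by itself. Of 77045 intervals between neighbouring sites of either list, 12.6% were at least 61.6 kb long, and the median was 10.8 kb. Runs of 10 or more consecutive protein-coding genes without a peak within 1 kb numbered 35 among 1773 such runs in the genome, of which 28 were longer, and the median run was a single gene. Around the gene starts of this stretch the sequence was nearly unique, while sequence further from the starts was not examined. Of the words of 100 bases within 1 kb of each gene start, at most 1.84% were also found elsewhere on the main chromosomes for any of the 10 genes, and none for H4C4, H3C4, H2AC7 or H2BC7.

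**Figure D3:**
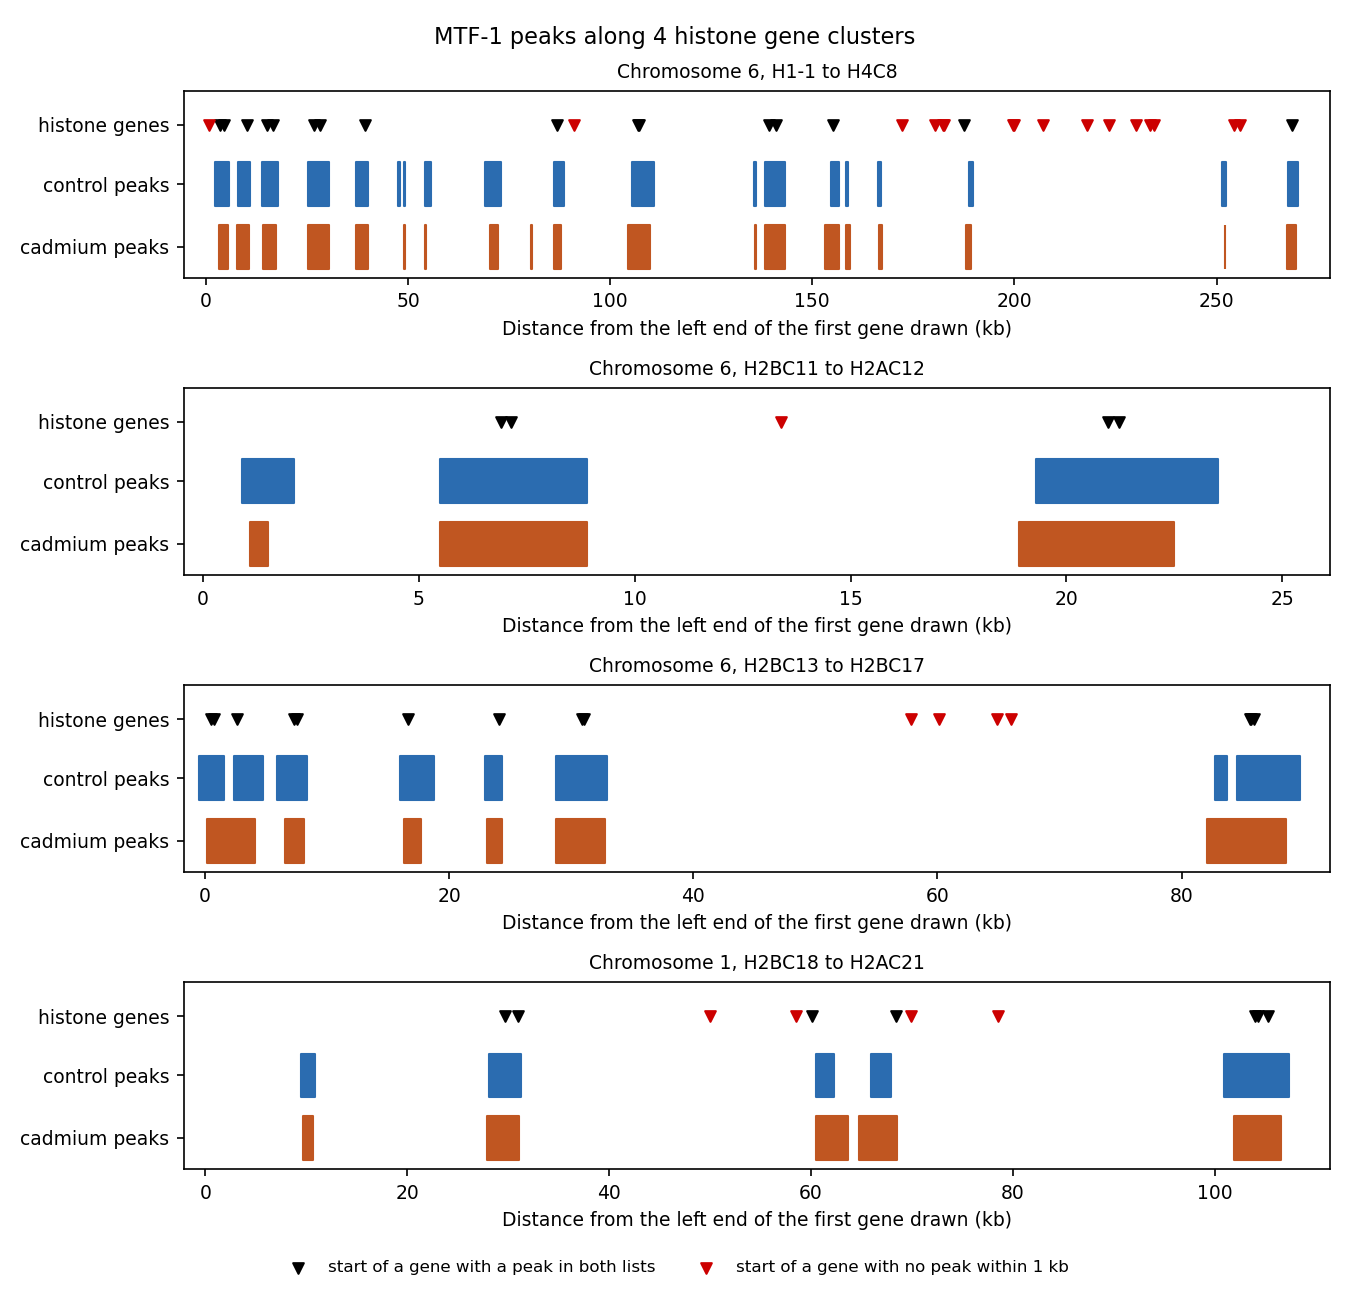
Maps of 4 histone clusters, with the distance from the left end of the first gene drawn in kb on the x axis, gene starts as triangles (black for genes with a peak within 1 kb in both lists, red for genes with none), and control (blue) and cadmium (orange) peaks as blocks to scale. H2AC1 and H2BC1, at the far left of the top cluster, are not drawn. The longest row of red triangles has 10, from H2BC8 to H2BC10, while those of H1-1, H1-6 and H4C9 stand alone, and every triangle drawn in black has a block of both colours within 1 kb of its gene.

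Of the other genes without a peak, some lay side by side, while H1-1, H1-6 and H4C9 were single genes without a peak between coding genes that had one. H2AC16, H1-5, H3C11 and H4C13, on chromosome 6 from 27865317 to 27873534, lay in 49.2 kb without a peak in either list, and none of their words of 100 bases was found elsewhere. H2AC1 and H2BC1, which encode testis variants of H2A and H2B, stood apart from the rest of the cluster. Their starts were 183639 and 183424 bp from the closest control peak and 65563 and 65778 bp from the closest cadmium peak. H1-1, at the left edge of the genes with peaks, had its start 1614 bp from a control peak and 2414 bp from a cadmium peak. H4C9, between the pairs H2BC11 with H2AC11 and H2BC12 with H2AC12, had its start 4483 bp from the closest peak in both lists. H1-6 had its start 2536 bp from a control peak and 3336 bp from a cadmium peak.

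On chromosome 1 the genes without a peak lay in copied sequence. H4C14 and H3C14, and in the opposite direction H3C15 and H4C15, belong to a near-identical inverted repeat, and all words of 100 bases around the starts of these 4 genes were also found elsewhere. For H2AC18 and H2AC19, at the inner ends of the repeat, the shares were 87.5% and 87.4%. H2AC18 had a peak of 1799 bp in the control list and of 3199 bp in the cadmium list, and H2AC19 one of 1999 bp and one of 3799 bp. How reads were placed between such copies is not known from the lists, so presence and absence of peaks at these 6 genes are uncertain, and the part of copied sequence in the missing peaks was not tested. Over all histone genes, 14 had at least 10% of their words elsewhere and 10 of these had a peak in both lists, while 32 of the other 55 had one. Besides the 6 genes, the 14 include H3C13 (46.2%), H2BC18 (38.2%), and H4C11 and H4C12 (15.5% each). H2BC13, H2AC13, H2AC14 and H2BC14 had 12.3% each. In the copied part of these windows the placement of reads is not known either, which limits the peaks and lengths given there.

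In all, 33 control peaks and 33 cadmium peaks lay within 1 kb of a histone gene. All 33 control peaks and 31 of the cadmium peaks shared at least 1 base with the other list, where 75.2% of control peaks and 87.3% of cadmium peaks within 1 kb of a protein-coding gene did so, and 72.1% and 84.9% of all peaks in the lists. The median width was 2599 bp in the control list (quartiles 1799 and 3799 bp) and 2399 bp in the cadmium list (1399 and 3599 bp). Over all peaks within 1 kb of a protein-coding gene it was 1599 bp and 1199 bp. In both lists the median width was greater for the peaks that held a gene start. Peaks that held the start of a histone gene had a median width of 3199 bp in the control list and 3299 bp in the cadmium list, and those that held the start of any protein-coding gene 2599 bp and 2199 bp, with 22 and 22 peaks against 10683 and 10296. The part of width in the shared status of the peaks at histone genes was not tested.

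Several histone genes often lay at 1 peak. In the control list 18 peaks were within 1 kb of 1 histone gene, 13 of 2 and 2 of 3, with a mean of 1.52 genes per peak. In the cadmium list the numbers were 18, 12 and 3, with a mean of 1.55. The peaks with 3 genes in the control list were those of H2BC21, H2AC20 and H2AC21 on chromosome 1 (149883601 to 149889999) and of H3C12, H2AC17 and H2BC17 on chromosome 6 (27892001 to 27897199). The cadmium list held 3 genes under 1 peak at both places and also at H2BC13, H2AC13 and H3C10. The GENCODE start of H3C12 lies inside H2AC17. The stem-loop of H3C12, at 27890320 to 27890335, lies inside a peak in both lists. In the cadmium list it is the peak that holds this start, and in the control list a separate peak of 999 bp (27890201 to 27891199).

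The peaks of both lists formed 33 sites, of which 31 were shared and 2 were present in the cadmium list only. Of the 31 shared sites, 18 (58.1%) were covered over a shorter length in the cadmium list, 6 (19.4%) over a greater length and 7 (22.6%) over an equal length. Among the 31523 shared sites within 1 kb of a protein-coding gene, the shares were 59.5%, 23.9% and 16.6%, so the histone sites followed the general pattern of the 2 lists. The median difference, cadmium minus control, was -200.0 bp in both sets. A change of 200 bp is 1 bin of the peak caller, and no peak edge is known more finely than that.

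**Figure D4:**
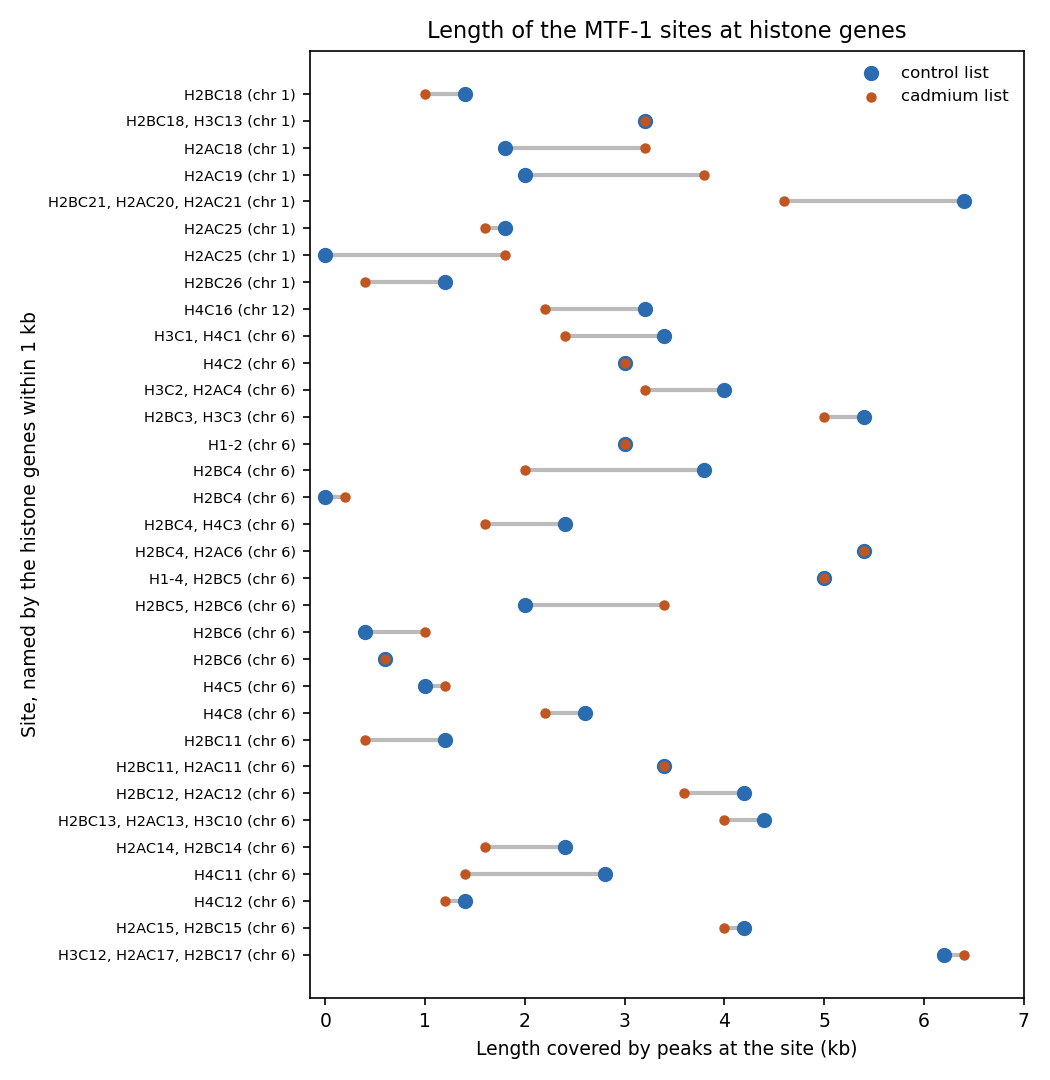
Length covered by control peaks (blue, large points) and cadmium peaks (orange, small points) at the 33 sites within 1 kb of histone genes, in kb, with a line joining the values of a site and each site named by its genes. The orange point lies to the left of the blue one at 18 sites and to the right at 6 shared sites and at the 2 sites at 0 in the control list.

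The widest sites held clusters of starts. The site of H2BC21, H2AC20 and H2AC21 had the widest control peak, 6399 bp, which was 4599 bp in the cadmium list. With the site of H2BC4 near its far end, where 3799 bp in the control list stood against 1999 bp in the cadmium list, this was the largest loss of length, 1800 bp at each. This H2BC4 site does not lie at the start of H2BC4 but at that of HFE, a neighbouring gene that encodes a regulator of iron uptake. The third largest loss was at H4C11, from 2799 to 1399 bp. The widest cadmium peak, also 6399 bp, held H3C12, H2AC17 and H2BC17, where the control list had 2 peaks of 999 and 5199 bp.

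The largest gains among shared sites were at H2AC19, by 1800 bp, and at H2AC18 and the site that holds the end of H2BC5 and the start of H2BC6, each by 1400 bp. H2AC19 and H2AC18 are the genes in the chromosome 1 repeat, where copies of the sequence make the lengths uncertain. At H2BC6 the control peak of 1999 bp widened to 3399 bp. At H2BC13, H2AC13 and H3C10 the control list had peaks of 1999 and 2399 bp, which the cadmium list joined into 1 of 3999 bp.

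Of the remaining sites in the large chromosome 6 cluster, that of H3C1 and H4C1 measured 3399 bp in the control list and 2399 bp in the cadmium list. That of H3C2 and H2AC4 measured 3999 and 3199 bp, and that of H2BC3 and H3C3 5399 and 4999 bp. Each of these 3 sites held the starts of both its genes and was shorter in the cadmium list. H4C3 lay in a site of 2399 bp in the control list and 1599 bp in the cadmium list, inside the long gene body of H2BC4. The peak over the starts of H2BC4 and H2AC6 was 5399 bp wide in both lists and shifted by 1000 bp. H4C2 had a peak of 2999 bp in both lists, shifted by 200 bp. The last 2 sites thus kept their length and not their edges. H4C8, at the right end of the cluster, had 2599 bp in the control list and 2199 bp in the cadmium list. The narrowest control peak, 399 bp, lay in the body of H2BC6 beyond its start and measured 999 bp in the cadmium list, and a further site of H2BC6 measured 599 bp in both. That site holds the start RefSeq gives for H2BC6, 11702 bp downstream of the GENCODE start.

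In the chromosome 6 group that begins with H2BC13, H4C12 had 1399 bp in the control list and 1199 bp in the cadmium list, and H2AC14 with H2BC14 had 2399 and 1599 bp. H2AC15 and H2BC15 had 4199 and 3999 bp. All of these were shorter in the cadmium list. On chromosome 1, H2BC18 and H3C13 lay at a site of 3199 bp in both lists, and H2BC18 had a second site in its long body of 1399 and 999 bp. In the group that begins with H2BC11, a second site in the body of H2BC11 measured 1199 and 399 bp.

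At 3 sites the peaks of both lists had the same start and end. These were at H1-2 (chromosome 6, 26054201 to 26057199), at H1-4 and H2BC5 (26155401 to 26160399) and at H2BC11 and H2AC11 (27131401 to 27134799). Among all 69299 control peaks, 10.6% had a cadmium peak with equal edges.

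The 2 sites found in the cadmium list only lay inside long gene bodies and not at a histone start. A peak of 199 bp, a single bin, lay on chromosome 6 from 26097401 to 26097599, within H2BC4 and HFE. A peak of 1799 bp lay on chromosome 1 from 228454201 to 228455999, within the body of H2AC25, whose start was 1874 bp away. Neither H2AC25 nor H2BC26, its head-to-head partner, had a peak within 1 kb of its start in either list. The further site of H2AC25 measured 1799 and 1599 bp and that of H2BC26, beyond the end of the gene, 1199 and 399 bp. H4C16, the lone H4 gene on chromosome 12, had a peak of 3199 bp in the control list and 2199 bp in the cadmium list that held its start.

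Histone genes often lie head to head, with a short shared promoter between their starts. There were 12 such pairs with starts under 1000 bp apart, at a median distance of 238 bp, and all but H3C7 with H2BC9 joined an H2A to an H2B gene. A single peak held both starts at 7 of the 12 pairs, in both lists. These were H2BC21 with H2AC20, H2BC11 with H2AC11, H2BC12 with H2AC12, H2BC13 with H2AC13, H2AC14 with H2BC14, H2AC15 with H2BC15 and H2AC17 with H2BC17. At the other 5 pairs no peak of either list held either start. These were H2AC1 with H2BC1, H2AC7 with H2BC7, H2BC8 with H2AC8, H3C7 with H2BC9 and H2AC25 with H2BC26. No pair had a peak over only one of its starts. The narrowest peak over the GENCODE start of a histone gene measured 1399 bp in the control list and 1199 bp in the cadmium list. With starts this close, a peak over one start mostly reaches the other, so this is not a result about histone pairs. The share over other head-to-head pairs of coding genes was not counted.

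**Figure D5:**
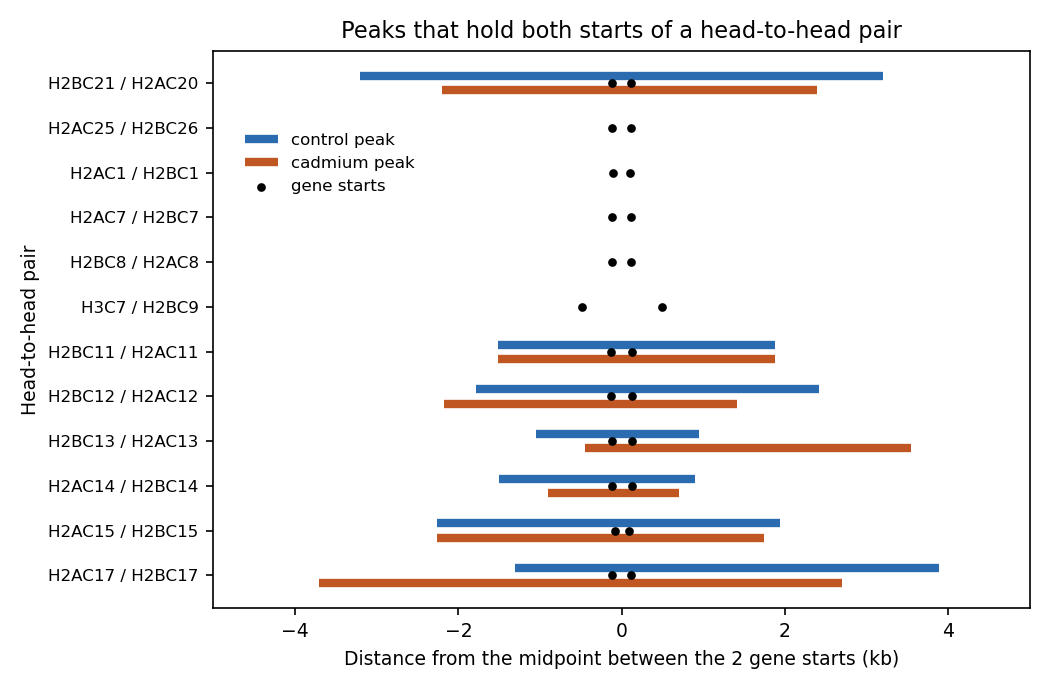
Extent of the control (blue) and cadmium (orange) peak that holds both starts of each of 12 head-to-head pairs, by distance from the midpoint between the starts in kb, with gene starts as black points. At 7 pairs both lists have such a peak, with equal edges at H2BC11 and H2AC11, and at 5 pairs neither list has one.

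The promoter sequences, 250 bases before to 50 after the start, were taken from RefSeq on GRCh38.p14 for the 64 of 69 genes that were matched by symbol. H4C1, H4C3, H2AC12, H3C11 and H3C12 were not matched. For H2BC6, H3C4 and H3C6 the window lies around another start than that of GENCODE, and for H3C4 this is the start of H2AC7, so these 2 promoters are the same sequence. Shown here are 3 genes with a peak over their start in both lists, H1-2, H2AC11 and H4C2, each beside a gene of the same class from the stretch without peaks, H1-3, H2AC8 and H4C6. Capitals mark the TATA box string TATAAA, the string CCAAT, bound by the factor NF-Y, and the octamer ATTTGCAT, bound by the factor OCT1, each on either strand and overlaps included. H2AC11 (chr6:27132793-27133092), H2AC8 (chr6:26216671-26216970) and H4C6 (chr6:26240143-26240442) lie on the plus strand, and H1-2 (chr6:26056421-26056720), H1-3 (chr6:26234938-26235237) and H4C2 (chr6:26027234-26027533) on the minus strand.
H1-2: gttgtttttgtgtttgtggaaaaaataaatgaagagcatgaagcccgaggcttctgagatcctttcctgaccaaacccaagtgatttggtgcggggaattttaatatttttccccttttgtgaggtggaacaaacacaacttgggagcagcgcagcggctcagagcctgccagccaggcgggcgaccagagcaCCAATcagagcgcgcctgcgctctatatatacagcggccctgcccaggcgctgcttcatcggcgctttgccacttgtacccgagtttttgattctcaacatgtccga
H1-3: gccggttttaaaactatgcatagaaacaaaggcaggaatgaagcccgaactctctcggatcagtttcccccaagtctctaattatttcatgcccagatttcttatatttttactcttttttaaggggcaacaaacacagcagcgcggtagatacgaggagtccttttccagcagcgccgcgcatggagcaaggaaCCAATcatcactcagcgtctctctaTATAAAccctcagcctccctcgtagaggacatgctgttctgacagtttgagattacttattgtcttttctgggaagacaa
H2AC11: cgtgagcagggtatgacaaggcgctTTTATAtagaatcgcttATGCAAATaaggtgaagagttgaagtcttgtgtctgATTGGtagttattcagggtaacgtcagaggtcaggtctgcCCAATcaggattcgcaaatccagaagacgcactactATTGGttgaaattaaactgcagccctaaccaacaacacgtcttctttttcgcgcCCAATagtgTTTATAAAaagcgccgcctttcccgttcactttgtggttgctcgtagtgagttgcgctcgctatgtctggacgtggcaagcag
H2AC8: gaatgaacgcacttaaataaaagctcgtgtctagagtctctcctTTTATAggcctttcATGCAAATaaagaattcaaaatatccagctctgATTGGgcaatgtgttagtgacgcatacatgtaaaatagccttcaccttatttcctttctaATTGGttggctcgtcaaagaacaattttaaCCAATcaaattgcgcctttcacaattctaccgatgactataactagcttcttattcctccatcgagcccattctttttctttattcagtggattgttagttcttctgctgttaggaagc
H4C2: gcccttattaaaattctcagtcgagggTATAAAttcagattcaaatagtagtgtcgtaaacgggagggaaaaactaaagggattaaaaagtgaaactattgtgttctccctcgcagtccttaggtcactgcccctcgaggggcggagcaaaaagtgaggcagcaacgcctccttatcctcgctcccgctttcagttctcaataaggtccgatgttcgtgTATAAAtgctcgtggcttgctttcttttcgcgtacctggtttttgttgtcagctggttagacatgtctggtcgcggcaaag
H4C6: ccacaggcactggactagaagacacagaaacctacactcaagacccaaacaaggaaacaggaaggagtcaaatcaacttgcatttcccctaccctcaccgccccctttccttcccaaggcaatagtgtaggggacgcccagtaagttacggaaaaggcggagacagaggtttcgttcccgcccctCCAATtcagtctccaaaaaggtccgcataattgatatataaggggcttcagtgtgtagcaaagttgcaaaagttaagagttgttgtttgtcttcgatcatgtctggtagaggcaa

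The H2AC11 and H2AC8 sequences reach across the shared promoter to the partner gene and both have the octamer with CCAAT and TATAAA on either strand. H2AC11, under a peak of 3399 bp, also has TTTCGCGC and a TGCGCNC string, which H2AC8, 10122 bp from the closest control peak, lacks. H1-2 and H1-3 both have CCAAT before the start, and H1-3 has TATAAA as well. H1-2 has a TGCGCNC string, which H1-3 lacks, and neither H4C2 nor H4C6 has TGCACNC or TGCGCNC. H4C2, with a peak, has TATAAA and no CCAAT, and H4C6, without, has CCAAT and no TATAAA. Over the set, CCAAT was present in 54 of the 64 promoters, including all of the matched H1, H2A, H2B and H3 promoters and 3 of 13 H4 promoters, and in 35.7% of the 27305 promoters in the table. ATTTGCAT was in 14 of 18 H2B and 11 of 16 H2A promoters, many of which are the same sequence read from either end, and in 1.8% of all promoters. TATAAA was in 42 of the 64 and in 12.0% of all promoters. TTTCGCGC or TTTGGCGC, strings of the type bound by E2F factors, were in 12 of the 64 and in 1.18% of all. These counts are on both strands and describe letters, not bound sites.

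Promoters were also split by whether the gene had a peak within 1 kb in both lists or in neither. The 38 promoters of the first set include those of H2AC25 and H2BC26, which had no peak within 1 kb of the start. They also include that of H4C5, which had one there in the cadmium list only. Between the sets, CCAAT and ATTTGCAT occurred at like shares. CCAAT was in 84.2% of the 38 promoters of genes with a peak and 84.6% of the 26 of genes without, and ATTTGCAT in 42.1% and 38.5%. TATAAA was in 29 of the 38 and 13 of the 26, and TTTCGCGC or TTTGGCGC in 10 and 2. The core of the metal response element, TGCACNC or TGCGCNC, was in 6 of the 38 and 2 of the 26 promoters, and in 29.3% of all promoters. The 6 include H2AC18 and H2AC19, which lie in the chromosome 1 repeat where peaks are uncertain. The string of AP-1 factors, TGACTCA or TGAGTCA, was in none of the 64 and in 4.92% of all promoters. The median GC content was 43.0% in promoters of genes with a peak and 45.5% in those of genes without, below the 58.3% of all promoters. The median ratio of observed to expected CpG was 0.86 and 0.73. None of these differences was tested, and promoters of head-to-head partners overlap.

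The peaks were also sought at genes outside the set. Of 20 regulators of histone gene expression, all had a peak within 1 kb of their start in both lists, where 63.6% of all protein-coding genes had one. For NPAT, the coactivator of histone transcription, the widest peak within 1 kb of the start measured 3999 bp in the control list and 2799 bp in the cadmium list, for CASP8AP2, a partner of NPAT in the histone locus body, 1799 and 1599 bp, and for SLBP, which binds the stem-loop, 10199 and 13999 bp. Of 11 histone genes that are expressed outside S phase or are variants, 10 had a peak within 1 kb of the start in both lists, and MACROH2A2 had none in either. The widest peak within 1 kb of the start of H1-10 measured 2999 bp in the control list and 3999 bp in the cadmium list, and that of H2AX, whose product marks DNA breaks, 9199 and 4799 bp.

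Among the 10 other protein-coding genes that overlap the clusters, 4 had a peak within 1 kb in both lists, 1 in the cadmium list only and 5 in neither. The shares of all protein-coding genes were 77.7%, 1.99% and 17.4%. The 5 were SLC17A4, SLC17A1, SLC17A3 and SLC17A2, anion transporter genes that lie between H2BC1 and H1-1, and ENSG00000282988, which overlaps H3C4 and H2AC7. The gene with a peak in the cadmium list only was ENSG00000290217, which overlaps H2AC1 and H2BC1 and begins outside the cluster, at 25652210. Its peak lay outside the cluster too, as the cadmium peak closest to the start of H2AC1 was 65563 bp away.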

How the data were processed

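MTF-1 CUT&RUN was carried out in 2 control and 2 cadmium libraries. Adaptor trimming, Bowtie2 alignment to hg38 and merging of each condition's replicates with samtools 1.8 were done by the authors. Peaks were then called on the merged reads with Epic2 0.0.50 at default parameters, a step for which the submitters' processing notes name SICER 0.0.50. A control library for peak calling is not given in the sources used here. The deposited lists hold a chromosome, a start and an end in base pairs, and a score column with the value 5 in every row, which was not used. Depth is unknown.

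Peaks were compared with GENCODE 44 genes in Python 3.11.15 with pandas 2.3.3, numpy 2.4.6 and pysam 0.24.0, and copied words were counted with numba 0.67.0. A peak was assigned to a gene at a distance under 1000 bp, and shared peaks had at least 1 base in common. Widths are end minus start as deposited. The interval steps were checked on simulated data. No test was made, since each condition has 1 list and genes are not replicates. Genes without a peak, the extremes of width and change, genes under peaks with most members, small groups, testis genes and the first 3 of each other list were to be named, and the remaining sites are given for completeness. The values of 1 gene under this rule are not reported here. The printed promoters were chosen after peak status was known. The members, lists and this naming rule were chosen with earlier results of these data known.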

Additional observations from a re-analysis of the deposited data

How the results depend on the processing

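The number of histone genes with a peak in only one of the lists, 0, moved under 4 of the alternatives. It was 2 when the peak had to overlap the gene itself (H2AC19 and H4C5, in the cadmium list), 1 within 3 kb of the gene (H4C15, in the cadmium list), 1 within 1 kb of the gene start (H4C5, in the cadmium list) and 2 with peaks of at least 1000 bp (H2BC26 in the control list and H4C5 in the cadmium list). The other 70 of the 74 values recomputed under alternatives stayed within 1.5 times the reported value. Among them were the counts without genes in copied sequence, an alternative chosen after seeing the data. Those counts are over 55 genes and not 69, so the limit says little about copied sequence. As shares, 58.2% of the 55 had a peak in both lists and 41.8% in neither, against 60.9% and 39.1% of all 69. The limit of 1.5 times was a set value, for widths too, and holds no information on the spread between replicates, which is unknown here. Leaving out a replicate could not be done, as the libraries were merged before peak calling. No paired analysis was possible because each condition has 1 merged list. Depth limits every statement of absence: a gene without a peak is one where none was called.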

Other observations

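Inside the histone clusters lay 11 histone pseudogenes, of which 3 had a peak within 1 kb in both lists and 8 had none. Among all protein-coding genes these shares were 77.7% and 17.4%, and the share over all pseudogenes was not counted. The 3 were H2BC19P and H2BC20P in the chromosome 1 repeat, which lie close to H2AC18 and H2AC19, and H2AC5P, which lies between H2BC3 and H3C3. Their peaks are those already counted at these histone genes. H1-12P, H3C5P, H2AC9P and H2AC10P lie within the chromosome 6 stretch without peaks.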
